A study of Mus musculus with 10 samples.

Results

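Cells make cholesterol from acetyl-CoA through mevalonate, farnesyl diphosphate, squalene and lanosterol. The SREBP transcription factors switch on the enzymes of this route. SCAP carries SREBPs out of the endoplasmic reticulum (ER) for cleavage when sterols are scarce, and the INSIG proteins hold SCAP and SREBP in the ER when sterols are plentiful. Excess cholesterol is esterified in the ER by SOAT1, and the esters are stored in lipid droplets. FIT2, an ER membrane protein encoded by Fitm2, acts in lipid droplet formation.

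The genes described here are 28 genes grouped by their function: 18 enzymes of sterol synthesis, 5 regulators of SREBP (Insig1, Insig2, Scap, Srebf1 and Srebf2) and 5 genes of sterol trafficking and esterification (Stard4, Tmem97, Npc1, Npc2 and Soat1). The list is given by gene names, and its rule uses no measured value. All 28 are among the 47340 genes of the FPKM table, whose unit counts fragments per exon length and per library size, and all 28 were among the 13065 genes tested.

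RNA came from islets of 10 male, chow-fed mice aged 12 wk, with 1 library per mouse. The 5 FL mice carry floxed Fitm2 and are titled Flox, with the genotype given as wild type in the labels. The 5 KO mice carry the same floxed alleles and in addition Ins2-cre, a Cre recombinase under the rat insulin promoter, a design meant to delete Fitm2 in β cells and not in the other cells of the islet. No library came from mice with Cre alone, so that effects of the transgene and of Fitm2 loss cannot be told apart here. All islets were cultured overnight in CMRL medium before polyA RNA was sequenced on stranded libraries as single reads of 75 bases.

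Fitm2 was at 16.9, 30.5, 16.5, 37.1 and 15.5 FPKM in FL mice 1 to 5 and at 4.56, 4.30, 7.75, 9.13 and 8.998 FPKM in KO mice 1 to 5. Every KO mouse lay below every FL mouse, and the log2 difference was −1.58 (SE 0.28, limma adjusted p = 0.00228). The libraries are of whole islets, which also hold cells in which the rat insulin promoter is not active. Relative depth was estimated from the most common ratio of FPKM to those of FL mouse 1, among genes under 0.3 FPKM in both libraries. It lay between 1.41 and 2.40 times that of FL mouse 1 in the other 9 libraries, and FPKM give no number of reads. Among all tested genes 3333 passed an adjusted p of 0.05 in limma and are termed called, 1183 of them higher and 2150 lower in KO, and the median log2 fold change was −0.06. The share of called genes that were lower was 64.5%, and 47.3% when libraries were rescaled by median ratio. The β cell markers Ins1, Ins2 and Iapp and the alpha cell marker Gcg were listed at 0 in every library, while other β cell markers such as Slc2a2 and Pdx1 were well above 1 FPKM.

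Of the 28 genes, 9 (32.1%) were called by limma, against 25.5% of all tested genes. The 6 that rose in KO islets were Soat1, Sqle, Fdps, Mvd, Acat2 and Tmem97 (21.4%, where 9.05% of all tested genes rose). The 3 that fell were Srebf1, Scap and Pmvk (10.7%, where 16.5% of all tested genes fell). Soat1 was at 2.14 times its FL mean in KO, and each of the other 8 called genes moved by less than 1.5-fold. The remaining 19 genes did not pass the test.

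The FL and KO values did not overlap for Soat1, Sqle, Mvd and Nsdhl, which were higher in KO, and for Scap and Srebf1, which were lower. That is 6 of 28 genes, where 19.1% of all tested genes had no overlap. When a 1.5-fold change was also asked for, Soat1 alone of the 28 passed, as did 4.89% of all tested genes. The median log2 fold change of the 28 genes was 0.11, and 20 of them (71.4%) lay above 0, as did 38.1% of all tested genes. Over all tested genes the median was −0.06, and 0.001 when libraries were rescaled by median ratio. The 38.1%, also used below for the enzymes, thus depends on the scaling. The plot of fold changes by role shows the enzymes that rose (Acat2, Mvd, Fdps and Sqle) before lanosterol, with Pmvk falling among them, the rises of Tmem97 and Soat1 among the trafficking and esterification genes, and the falls of Scap and Srebf1 among the regulators.

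**Figure D1:**
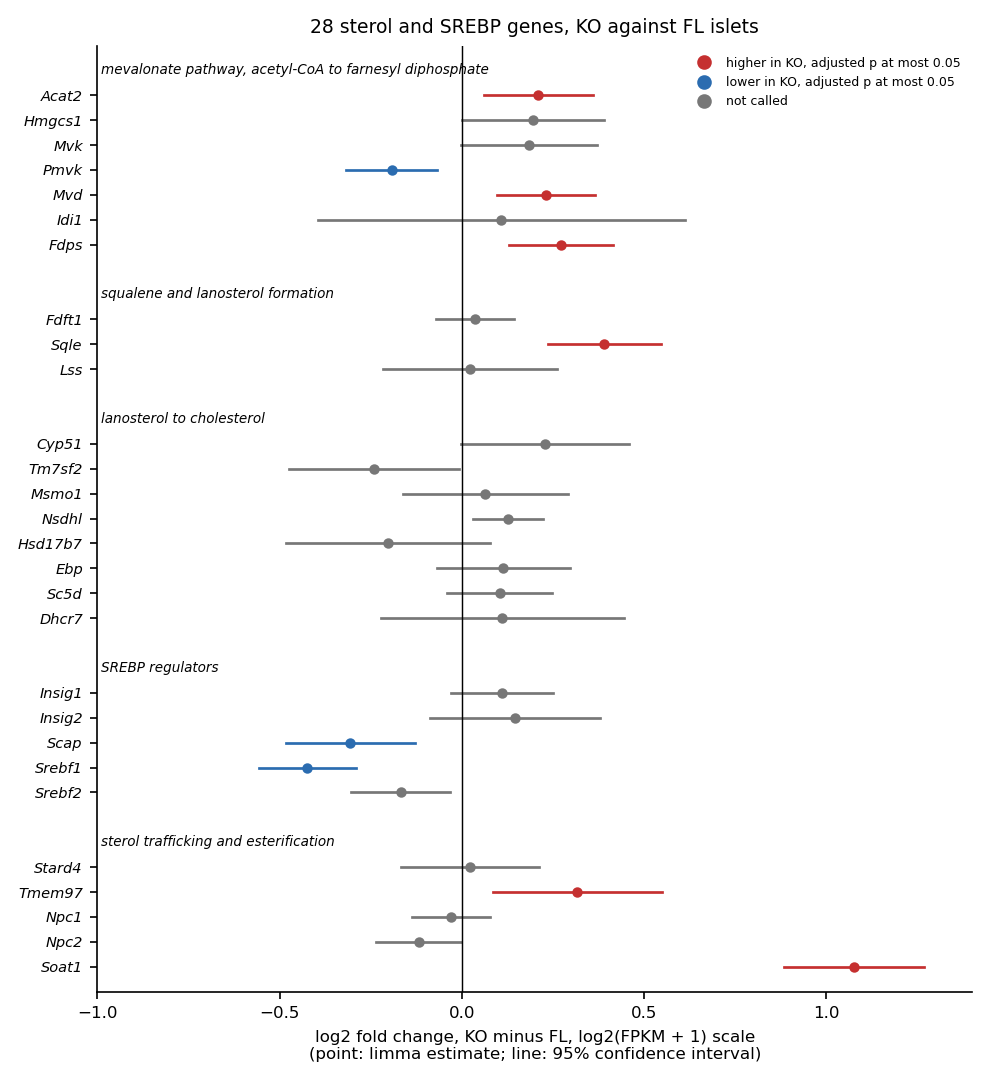
Log2 fold change of each of the 28 genes (KO minus FL, on the log2(FPKM + 1) scale), grouped by role; points are limma estimates, lines are 95% confidence intervals, and colours mark the 9 genes with an adjusted p of at most 0.05. Soat1, at 1.08, lies apart from the other 27 genes, which range from −0.42 (Srebf1) to 0.39 (Sqle).

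Soat1 (ENSMUSG00000026600.12, chr1:156424525-156474331, minus strand, GRCm38) encodes sterol O-acyltransferase, the ER enzyme that esterifies cholesterol. It was at 33.5, 27.7, 31.6, 31.9 and 25.8 FPKM in FL mice 1 to 5 and at 61.9, 68.2, 58.6, 74.5 and 59.4 FPKM in KO mice 1 to 5. The lowest KO mouse was well above the highest FL mouse. The mean rose from 30.1 ± 3.22 to 64.5 ± 6.74 FPKM (SD, n = 5). The log2 fold change was 1.08, with an SE of 0.09, a 95% confidence interval of 0.88 to 1.27 and a limma adjusted p of 1.01e-05. This was rank 178 of the 13065 tested genes by fold change and rank 127 by p. In FL islets Soat1 stood at place 15 of the 28 genes by mean FPKM, which is a level per exon length, and in KO islets at place 7.

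Esters are hydrolysed by LIPA, the lysosomal acid lipase, and by NCEH1, a neutral cholesterol ester hydrolase of the ER. Both of these genes, which are not among the 28, also rose, Lipa from 13.3 ± 1.35 to 19.997 ± 1.63 FPKM (SD, n = 5, log2 fold change 0.56, adjusted p = 0.000392 from limma) and Nceh1 from 21.7 ± 2.47 to 29.3 ± 2.34 FPKM (SD, n = 5, log2 fold change 0.42, adjusted p = 0.00333 from limma). Neither overlapped between FL and KO. The ratio of Soat1 FPKM to the summed FPKM of Lipa and Nceh1 was 0.952, 0.860, 0.902, 0.781 and 0.813 in FL mice 1 to 5 and 1.19, 1.44, 1.21, 1.396 and 1.32 in KO mice 1 to 5. The ratio was higher in each KO mouse than in each FL mouse, so that Soat1 FPKM moved more than the summed FPKM of Lipa and Nceh1. The rates of esterification and hydrolysis were not measured.

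Macrophages also express Soat1 and Lipa, and genes that mark macrophages moved in the same direction. The summed FPKM of 6 macrophage markers was 131 to 155 in FL and 183 to 223 in KO, and 3 of the 6 (Cd68, Lyz2 and C1qb) rose. None of the 6 was at 0. Adgre1, which encodes the F4/80 antigen, was at 1.57 ± 0.15 FPKM in FL mice and 1.96 ± 0.25 FPKM in KO mice (SD, n = 5), and Csf1r at 2.22 ± 0.45 and 2.55 ± 0.35 FPKM; neither was called. All 5 fibroblast markers rose, where 9.05% of all tested genes did (summed FPKM 11.7 to 20.1 in FL and 24.1 to 32.7 in KO). So did 4 of 5 endothelial markers (80.0%, summed FPKM 165 to 187 in FL and 202 to 248 in KO). Of 7 tested β cell markers, 6 fell (85.7%, against 16.5% of all tested genes). The summed FPKM of all 10 listed was 2273 to 2844 in FL and 1511 to 2124 in KO. Of 4 tested alpha cell markers 1 (Ttr) fell (25.0%), and of 3 delta cell markers 1 (Sst) fell (33.3%). In lists this short, 1 gene is close to the 16.5% of all tested genes that fell. The summed FPKM of alpha cell markers, most of it Ttr, was 430 to 644 in FL and 285 to 425 in KO. That of delta cell markers, most of it Sst, was 4958 to 5850 in FL and 3991 to 5337 in KO. Of 4 adipocyte markers only Fabp4, which rose (log2 fold change 0.75), was high enough to be tested; Adipoq was listed at 0 in all libraries, Plin1 in all but that of KO mouse 5, and the Cidec means of 0.204 (FL) and 0.235 FPKM (KO) came from overlapping values. Of 5 tested duct markers, Cftr, a chloride channel, rose from 0.0372 ± 0.018 to 2.13 ± 0.31 FPKM (SD, n = 5; log2 fold change 1.59, adjusted p = 1.13e-06 from limma), and the keratin gene Krt7 fell from 451 ± 34.9 to 356 ± 26.0 FPKM (SD, n = 5). Cftr reached the minimum of 1 FPKM for testing by its KO mean only. The duct markers Krt19, Spp1 and Muc1 were not called, and their values overlapped between FL and KO. The summed FPKM of all 6 duct markers, most of it Krt7, was 605 to 666 in FL and 514 to 655 in KO. Of the 10 acinar markers limma called 0 (0 also at an unadjusted p under 0.05), where 25.5% of all tested genes were called. Their sums ranged from 4454 to 11869 in FL and from 2953 to 21853 in KO, with KO mouse 5 the highest. In bulk islets, fewer cells of a type and less RNA per cell cannot be told apart, and the part of these cell types in the results on sterol genes was not tested.

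**Figure D2:**
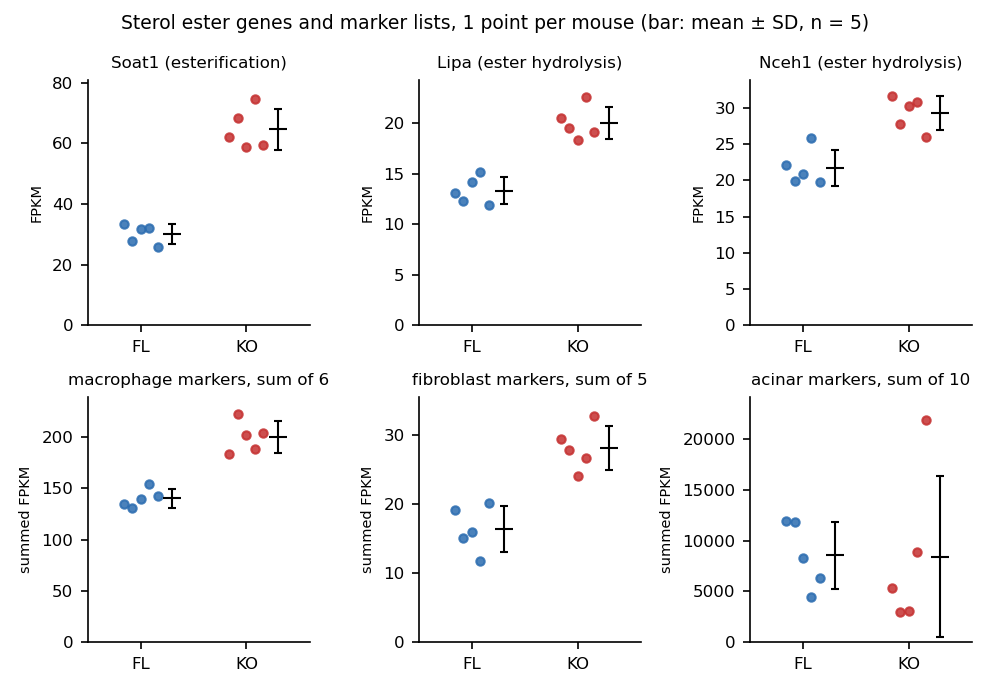
FPKM of Soat1, Lipa and Nceh1 and summed FPKM of macrophage, fibroblast and acinar marker lists in each FL and KO mouse (1 point per mouse; bars are mean ± SD, n = 5). The 3 ester genes and the macrophage and fibroblast sums do not overlap between groups, while the acinar sums do, with KO mouse 5 at 21853.

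The 7 genes from acetyl-CoA to farnesyl diphosphate had a median log2 fold change of 0.19; 3 of them rose (Acat2, Mvd and Fdps; 42.9%, against 9.05% of all tested genes), 1 fell (Pmvk; 14.3%, against 16.5%) and 3 did not pass (Hmgcs1, Mvk and Idi1). Fdps (ENSMUSG00000059743.12, chr3:89093588-89101959, minus strand) encodes farnesyl diphosphate synthase, which makes the last intermediate shared by sterols, dolichol and prenyl groups. It was at 93.6, 83.6, 94.3, 101 and 84.9 FPKM in FL mice 1 to 5 and at 101, 118, 108, 117 and 109 FPKM in KO mice 1 to 5. Only the top FL mouse and the lowest KO mouse, both near 101 FPKM, met, and the log2 fold change was 0.27 with an SE of 0.07 (limma adjusted p = 0.0118). Of the 4208 exon bases of Fdps, 1124 are shared with Gm43738 on the same strand, which was at 0 FPKM in FL mice and 0.126 FPKM in KO mice.

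Mvd (ENSMUSG00000006517.4, chr8:122433601-122443422, minus strand) encodes mevalonate diphosphate decarboxylase. It was at 6.29, 5.71, 6.57, 7.22 and 6.28 FPKM in FL mice 1 to 5 and at 7.48, 8.45, 7.41, 7.49 and 7.62 FPKM in KO mice 1 to 5. No KO mouse fell among the FL mice, KO mouse 2 stood above the other KO mice, and the log2 fold change was 0.23 with an SE of 0.06 (limma adjusted p = 0.0188). Mvd did not pass with the replicate number as a block (limma adjusted p = 0.0754). Acat2 (ENSMUSG00000023832.13, chr17:12942890-12960747, minus strand) encodes the cytosolic acetoacetyl-CoA thiolase that opens the route. It was at 5.34, 5.32, 4.66, 5.89 and 4.79 FPKM in FL mice 1 to 5 and at 5.87, 6.23, 6.88, 6.09 and 5.76 FPKM in KO mice 1 to 5. FL mouse 4 lay above 2 KO mice, and the log2 fold change of 0.21 (SE 0.07) had an adjusted p of 0.0432 from limma. This call was lost when any of FL mice 1, 2, 3 or 5 or KO mice 1, 2, 3 or 4 was left out (adjusted p from 0.0617 to 0.103 from limma), when low genes were not filtered (0.0868) and at a minimum of 5 FPKM (0.0649). With the replicate number as a block Acat2 did not pass either (limma adjusted p = 0.103).

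Pmvk, phosphomevalonate kinase (ENSMUSG00000027952.16, chr3:89454541-89469013, plus strand), moved against the other called enzymes. It was at 28.3, 30.3, 27.9, 30.8 and 31.0 FPKM in FL mice 1 to 5 and at 26.0, 28.4, 24.9, 23.5 and 26.4 FPKM in KO mice 1 to 5. KO mouse 2 lay within the FL range and the other KO mice below it, and the log2 difference was −0.19 (SE 0.06, limma adjusted p = 0.029). Without FL mouse 2, 4 or 5 or KO mouse 1, 3 or 4 the gene did not pass (adjusted p from 0.0567 to 0.0699 from limma), nor did it pass when libraries were rescaled by median ratio (0.0943), quantiles (0.0825) or to the same sum (0.0918). The replicate number as a block also ended the call of Pmvk (limma adjusted p = 0.0628).

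Hmgcs1, which encodes the HMG-CoA synthase of the cytosol, was at 26.2, 26.2, 28.7, 32.0 and 26.5 FPKM in FL mice 1 to 5 and at 34.4, 26.3, 34.6, 35.5 and 30.1 FPKM in KO mice 1 to 5. KO mouse 2 lay among the low FL mice and 3 KO mice lay above all FL mice. The log2 fold change was 0.19 (95% confidence interval just below 0 up to 0.39, adjusted p = 0.133 from limma), and the gene passed without KO mouse 2 (adjusted p = 0.026 from limma) or with sample weights (0.0141). Mvk, mevalonate kinase, had a log2 fold change of 0.18 (adjusted p = 0.137 from limma). Idi1, the isopentenyl diphosphate isomerase, was the least even of the 28 genes between mice, with a coefficient of variation of 35.0% in FL and 29.5% in KO. Its FPKM ran from 3.88 to 10.3 in FL and from 4.23 to 9.70 in KO, and its log2 fold change of 0.11 had a 95% confidence interval of −0.40 to 0.61.

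From farnesyl diphosphate to lanosterol, Sqle rose and Fdft1 and Lss did not pass. Sqle (ENSMUSG00000022351.14, chr15:59315077-59331192, plus strand) encodes squalene epoxidase, a rate-limiting enzyme of the sterol branch. It was at 84.8, 70.0, 79.8, 90.3 and 76.7 FPKM in FL mice 1 to 5 and at 107, 109, 111, 104 and 95.8 FPKM in KO mice 1 to 5. All KO mice were above all FL mice, and the mean rose from 80.3 ± 7.73 to 105 ± 5.996 FPKM (SD, n = 5, log2 fold change 0.39 with SE 0.07, limma adjusted p = 0.00239). This was the largest log2 fold change among the 18 enzymes.

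Fdft1, the squalene synthase, was at 27.7, 26.5, 29.3, 30.9 and 28.2 FPKM in FL mice 1 to 5 and at 29.8, 28.4, 28.9, 30.6 and 28.4 FPKM in KO mice 1 to 5. All KO mice lay within the FL range, and the 95% confidence interval of the log2 fold change was −0.07 to 0.14. Of its 4227 exon bases, 774 are shared with Ctsb on the opposite strand, at 262 FPKM in FL mice and 244 FPKM in KO mice, and whether reads were counted by strand is not given in the sources used here, so this level is uncertain. Lss, the lanosterol synthase, ranged from 33.3 to 48.7 FPKM in FL and from 34.9 to 46.7 FPKM in KO, with a log2 fold change of 0.02 (95% confidence interval −0.22 to 0.26).

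None of the 8 enzymes between lanosterol and cholesterol was called by limma, where 25.5% of all tested genes were, and 6 of the 8 (75.0%, against 38.1% of all tested genes) had a log2 fold change above 0, with a median of 0.11. At an unadjusted p under 0.05, Nsdhl and Tm7sf2 would pass. Nsdhl, a sterol dehydrogenase of the C4 demethylation step, was at 8.37, 8.22, 8.57, 8.25 and 7.95 FPKM in FL mice 1 to 5 and at 8.60, 8.97, 9.22, 9.55 and 9.30 FPKM in KO mice 1 to 5. The lowest KO mouse was barely above the highest FL mouse (8.599 against 8.565 FPKM). The log2 fold change was 0.13 (SE 0.04, adjusted p = 0.0522 from limma), and the exact two-sided permutation test gave p = 0.00794, the smallest that 5 mice against 5 allow. Nsdhl passed when libraries were rescaled by median ratio (adjusted p = 0.0187 from limma), quantiles (0.0204) or to the same sum (0.0255), and without KO mouse 1 (0.0486).

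Cyp51, the lanosterol demethylase that opens this branch, was at 36.5, 24.1, 32.1, 37.2 and 30.9 FPKM in FL mice 1 to 5 and at 39.3, 40.5, 36.7, 35.9 and 34.9 FPKM in KO mice 1 to 5. FL mice 1 and 4 lay within the KO range and the other 3 below it, FL mouse 2 lowest of all (log2 fold change 0.23, 95% confidence interval just below 0 up to 0.46, adjusted p = 0.136 from limma). Without FL mouse 2 the log2 fold change of Cyp51 was 0.13. Tm7sf2, a sterol reductase, had a log2 fold change of −0.24 (adjusted p = 0.122 from limma), and passed without KO mouse 2 (0.0397). It shares 532 of 4403 exon bases with Vps51 on the same strand, at 40.7 FPKM in FL mice and 45.3 FPKM in KO mice, against 6.25 and 5.16 FPKM for Tm7sf2 itself, so its level is uncertain.

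Msmo1, a methylsterol oxidase, was the highest enzyme of the list, at 123 ± 16.5 FPKM in FL mice and 129 ± 15.0 FPKM in KO mice (SD, n = 5). Hsd17b7, a keto reductase, had a log2 fold change of −0.20, with 4.51 to 8.02 FPKM in FL and 4.71 to 6.72 FPKM in KO. Ebp, Sc5d and Dhcr7, which act in the last steps, had log2 fold changes of 0.11, 0.10 and 0.11. Their 95% confidence intervals were −0.07 to 0.30 for Ebp, −0.04 to 0.25 for Sc5d and −0.22 to 0.45 for Dhcr7, so that changes of the size seen for Fdps lie within all but that of Sc5d. With a mouse left out, the log2 fold changes ran from 0.050 to 0.15 (Ebp), 0.070 to 0.15 (Sc5d) and 0.023 to 0.20 (Dhcr7).

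Over the 18 enzymes together, 4 rose (22.2%, against 9.05% of all tested genes), 1 fell (5.56%, against 16.5%), and 15 (83.3%, against 38.1%) had a log2 fold change above 0. Averaged over the enzymes, the log2 difference from the FL mean was 0.05, −0.15, 0.03, 0.14 and −0.07 in FL mice 1 to 5 and 0.07, 0.13, 0.15, 0.11 and 0.03 in KO mice 1 to 5. Each KO mouse lay above 0, but FL mouse 4 was above 4 of the 5 KO mice, so the groups overlapped.

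**Figure D3:**
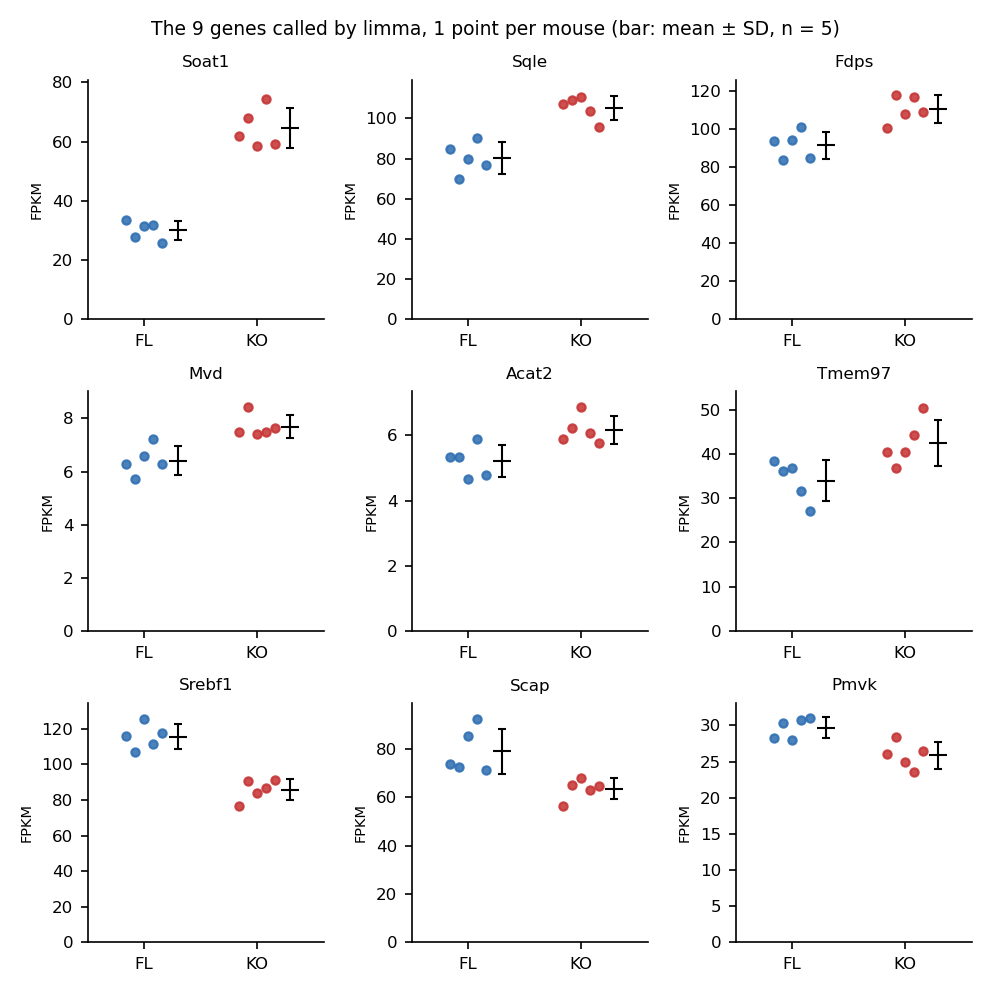
FPKM of the 9 genes called by limma in each FL and KO mouse (1 point per mouse; bars are mean ± SD, n = 5; every axis starts at 0). Soat1, Sqle and Mvd are higher and Srebf1 and Scap lower in KO without overlap, while Fdps, Acat2, Tmem97 and Pmvk overlap at 1 or more mice.

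The regulators that were called moved the other way from most called enzymes. Srebf1 and Scap fell, Srebf2 was lower without passing, and Insig1 and Insig2 did not pass. Srebf1 (ENSMUSG00000020538.15, chr11:60199089-60222581, minus strand) encodes SREBP-1, which in general favours genes of fatty acid synthesis. It was at 116, 107, 126, 111 and 117 FPKM in FL mice 1 to 5 and at 76.7, 90.8, 84.0, 86.6 and 90.9 FPKM in KO mice 1 to 5. The highest KO mouse lay below the lowest FL mouse, and the mean fell from 115 ± 6.97 to 85.8 ± 5.88 FPKM (SD, n = 5, log2 fold change −0.42 with SE 0.06, limma adjusted p = 0.000573). The table gives 1 value for the gene, so the SREBP-1 forms that start at different promoters are summed. Levels of mRNA say nothing of how much SREBP protein is cleaved.

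Scap (ENSMUSG00000032485.14, chr9:110333288-110384950, plus strand), the sterol sensor that escorts SREBPs, was at 73.8, 72.4, 85.1, 92.4 and 71.1 FPKM in FL mice 1 to 5 and at 56.5, 65.1, 68.0, 63.0 and 64.7 FPKM in KO mice 1 to 5. The groups did not overlap, and the log2 fold change was −0.31 with an SE of 0.08 (limma adjusted p = 0.0181). Srebf2, whose product SREBP-2 favours the sterol genes, was at 44.1, 39.3, 46.1, 47.1 and 43.5 FPKM in FL mice 1 to 5 and at 37.7, 42.0, 38.4, 35.7 and 41.3 FPKM in KO mice 1 to 5. FL mouse 2 lay among the KO mice. The log2 fold change was −0.17 (SE 0.06, adjusted p = 0.0681 from limma), and the gene passed without FL mouse 2 (0.0306) or KO mouse 2 (0.0445) or with sample weights (0.0199). The ratio of Srebf1 to Srebf2 FPKM was 2.36 to 2.73 in FL (mean 2.63 ± 0.15) and 2.03 to 2.42 in KO (mean 2.201 ± 0.14, SD, n = 5). Of the FL mice, mouse 4 alone was within the KO range of this ratio.

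Insig1 is itself a classic SREBP target, and its product retains SCAP in the ER. It was at 45.1, 39.9, 43.9, 49.96 and 40.9 FPKM in FL mice 1 to 5 and at 50.2, 45.3, 47.5, 49.2 and 44.9 FPKM in KO mice 1 to 5. The KO mice lay in the upper part of the FL range or just above it, and the log2 fold change was 0.11 (95% confidence interval −0.03 to 0.25, adjusted p = 0.237 from limma); it passed with sample weights (0.0393). Insig2 was the most abundant of the 28 genes in FPKM in both groups, at 107, 130, 136, 138 and 144 FPKM in FL mice 1 to 5 and at 162, 152, 164, 129 and 120 FPKM in KO mice 1 to 5. Its values overlapped (log2 fold change 0.15, 95% confidence interval −0.09 to 0.38, adjusted p = 0.348 from limma). With a mouse left out, the log2 fold change of Insig2 ran from 0.074 to 0.21. The ratio of Insig1 to Insig2 FPKM was 0.339 ± 0.054 in FL and 0.331 ± 0.044 in KO (SD, n = 5), with ranges that overlapped almost fully.

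Among the trafficking genes, Tmem97 and Soat1 rose and Stard4, Npc1 and Npc2 did not pass. Tmem97 (ENSMUSG00000037278.9, chr11:78541817-78550777, minus strand) encodes the sigma-2 receptor, an ER protein that binds NPC1. It was at 38.5, 36.1, 36.8, 31.6 and 27.1 FPKM in FL mice 1 to 5 and at 40.4, 36.9, 40.5, 44.4 and 50.4 FPKM in KO mice 1 to 5. KO mouse 2 lay below FL mouse 1, and the log2 fold change was 0.32 with an SE of 0.11 (limma adjusted p = 0.0474). The call was lost without FL mouse 2, 3, 4 or 5 or KO mouse 1, 3, 4 or 5 (adjusted p from 0.0569 to 0.0995 from limma), when low genes were not filtered (0.0904) and without a trend in the variance (0.0539). Tmem97 also did not pass with the replicate number as a block (limma adjusted p = 0.134).

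Npc1 and Npc2 hand cholesterol out of the lysosome. Npc1 was at 14.4 ± 0.81 FPKM in FL mice and 14.1 ± 0.50 FPKM in KO mice (SD, n = 5), with a 95% confidence interval of the log2 fold change of −0.14 to 0.08. Npc2 was at 91.7 ± 5.27 FPKM in FL mice and 84.4 ± 4.15 FPKM in KO mice (SD, n = 5, adjusted p = 0.125 from limma). Stard4, a soluble sterol carrier and SREBP target, was at 13.7 ± 1.95 FPKM in FL mice and 13.9 ± 1.03 FPKM in KO mice (SD, n = 5). Its log2 fold change was 0.02 (95% confidence interval −0.17 to 0.21), so a rise of the size of Soat1 lies outside the interval of each of these 3 genes.

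The 28 genes also differed between mice of one group, often with the same mouse at the top or bottom. FL mouse 4 had the highest value of the FL mice for 19 of the 28 genes (67.9%) and for 32.3% of all tested genes, and FL mouse 2 had the lowest for 15 (53.6%, against 22.1%). Of the 18 enzymes, FL mouse 4 was highest in 13 and FL mouse 2 lowest in 11. In KO, mouse 2 was highest for 12 genes (42.9%, against 35.5% of all tested genes) and mouse 5 lowest for 10 (35.7%, against 35.5%). FL mouse 4 also had the lowest acinar marker sum of the FL mice, at 4454 FPKM, where FL mice 1 and 2 were at 11869 and 11826; FL mouse 1 was lowest for 2 of the 28 genes. Ppy, which encodes the pancreatic polypeptide of PP cells, was also lowest in FL mouse 4, at 2811 FPKM against 6809 to 16923 in the other FL mice and 8815 to 12871 in KO mice, and neither of the 2 PP cell markers (Ppy and Etv1) was called. The part of these markers in the order of the mice was not tested. The heat map by mouse shows the lower values of FL mouse 2 and the higher values of FL mouse 4 along the enzymes.

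**Figure D4:**
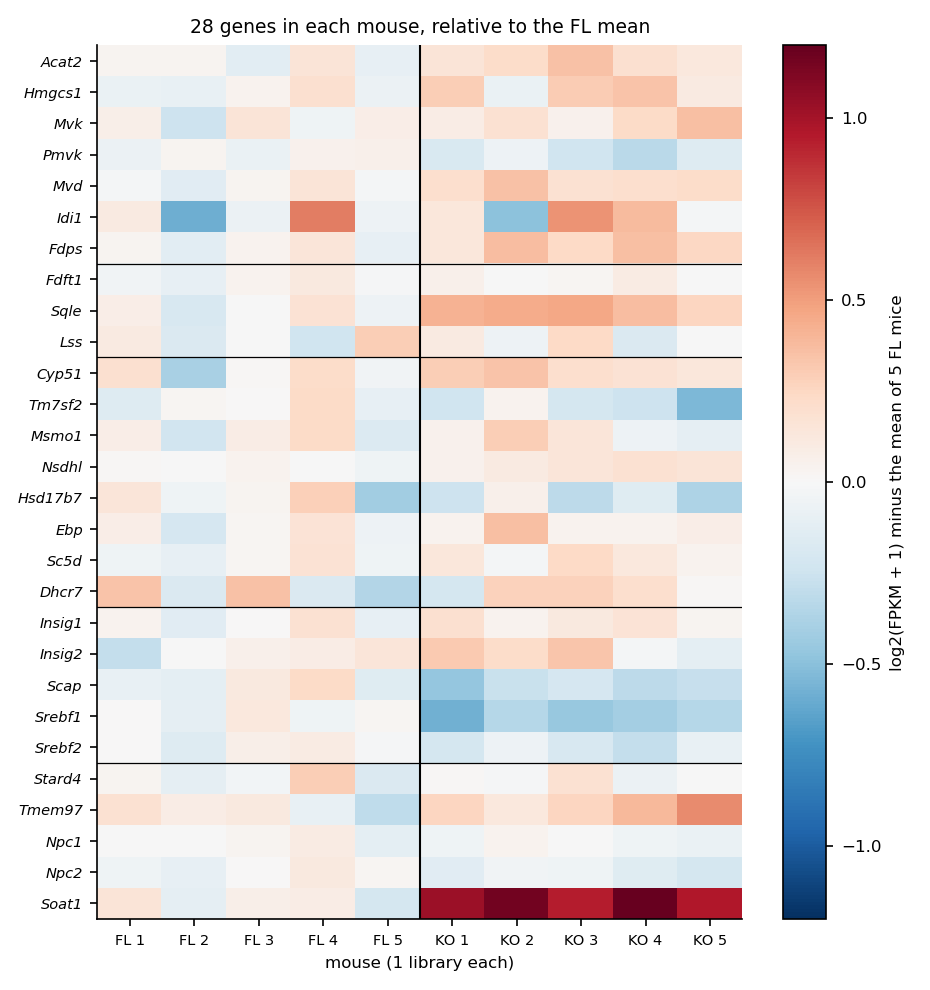
Log2(FPKM + 1) of the 28 genes in each mouse minus the mean of the 5 FL mice (columns are mice, rows are genes in order of role, red above and blue below the FL mean). Soat1 is red in all 5 KO mice, Srebf1 and Scap are blue in all 5, and FL mouse 2 is below the mean of FL for most enzymes.

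By level per exon length, the 28 genes spanned a wide range in FL islets. Insig2 (131 FPKM), Msmo1 (123 FPKM) and Srebf1 (115 FPKM) were highest, and their values in the 5 mice overlapped. Npc2 and Fdps followed at 91.7 and 91.5 FPKM, which did not differ beyond their spread, then Sqle and Scap. At the low end were Acat2 (5.20 FPKM), Tm7sf2 (6.25 FPKM), Mvd (6.41 FPKM), Hsd17b7 (6.47 FPKM) and Idi1 (6.62 FPKM), all with overlapping values. Acat2 and Mvd thus rose from low levels, where the log2(FPKM + 1) scale understates a change.

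SREBPs bind sterol regulatory elements in promoters, commonly next to sites of NF-Y, which binds CCAAT, and of Sp1. The RefSeq promoter windows (GRCm38.p6, 250 bases before to 50 after the start) were searched on both strands for the sterol regulatory element core TCACNCCA, for CCAAT, for the Sp1 box GGGCGG and for the E-box CACGTG, which SREBP-1 can also bind. A window was matched for 23 of the 28 genes; Fdft1, Sqle, Fdps, Stard4 and Npc1 were not matched. The core was found in Hmgcs1, Msmo1 and Srebf2 (3 of 23, 13.0%), as in 4.63% of 9631 tested genes with a window. CCAAT was in 21 of 23 (91.3%, against 42.5%), GGGCGG in 22 (95.7%, against 69.9%) and CACGTG in 5 (21.7%, against 12.0%). Of the windows of all genes, 4.36% hold the core, 37.4% CCAAT, 35.7% GGGCGG and 7.15% CACGTG.

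The 250 bases before the start are printed for Hmgcs1 and Srebf2, which hold the core and were not called, and for Soat1 and Mvd, which rose and do not hold it; capitals mark the core and CCAAT on either strand (ATTGG on the other strand). The windows are chr13:119690101-119690350 on the plus strand for Hmgcs1, with the core 137 bases before the start, chr15:82147019-82147268 on the plus strand for Srebf2, with the core 162 bases before the start, chr1:156474329-156474578 on the minus strand for Soat1 and chr8:122443423-122443672 on the minus strand for Mvd.
Hmgcs1: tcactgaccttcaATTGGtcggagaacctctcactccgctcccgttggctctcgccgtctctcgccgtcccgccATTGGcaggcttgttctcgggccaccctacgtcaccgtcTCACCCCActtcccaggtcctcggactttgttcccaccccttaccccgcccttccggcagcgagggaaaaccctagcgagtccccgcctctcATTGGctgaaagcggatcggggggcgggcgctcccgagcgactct
Srebf2: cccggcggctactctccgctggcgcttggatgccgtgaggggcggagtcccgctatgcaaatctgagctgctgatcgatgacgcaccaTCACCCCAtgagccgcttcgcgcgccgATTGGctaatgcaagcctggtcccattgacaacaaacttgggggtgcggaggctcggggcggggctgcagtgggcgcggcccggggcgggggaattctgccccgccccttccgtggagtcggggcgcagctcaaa
Soat1: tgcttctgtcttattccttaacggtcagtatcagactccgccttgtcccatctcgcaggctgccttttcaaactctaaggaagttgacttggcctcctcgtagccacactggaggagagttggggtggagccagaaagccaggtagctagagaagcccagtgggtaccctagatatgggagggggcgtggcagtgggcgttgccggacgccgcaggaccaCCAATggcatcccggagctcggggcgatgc
Mvd: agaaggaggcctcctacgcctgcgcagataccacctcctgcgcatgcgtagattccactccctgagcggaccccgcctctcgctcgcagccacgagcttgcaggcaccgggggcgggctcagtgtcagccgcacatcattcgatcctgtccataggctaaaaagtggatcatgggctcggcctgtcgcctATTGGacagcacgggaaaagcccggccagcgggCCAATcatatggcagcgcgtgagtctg
Among the 4 called genes that rose and have a window, 0 hold the core and 3 hold CCAAT; among the 3 that fell, 0 hold the core and 2 hold CCAAT. A match is a description of letters in these windows and not of binding. Sites with other letters or outside these windows were not searched for, so a gene without the core here is not shown to lack such an element.

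Other genes around this pathway were read from the same fit. Of 54 such genes in 4 lists, 53 were tested (Thrsp was below the minimum), 8 rose (15.1%, against 9.05% of all tested genes), 6 fell (11.3%, against 16.5%) and the median log2 fold change was −0.05, against −0.06. Called genes made up 26.4% of the 53, near the 25.5% of all tested genes, and the counts for each list below stand against the same shares. Among 13 tested genes of fatty acid synthesis and desaturation, which SREBP-1 favours, 4 rose (Acss2, Me1, Elovl6 and Fads1) and 2 fell (Elovl5 and Fads2). Fads1, a fatty acid desaturase, was at 22.4 ± 1.04 FPKM in FL mice and 29.9 ± 3.14 FPKM in KO mice, and Elovl6, an elongase of saturated chains, at 6.83 ± 0.35 and 8.78 ± 0.39 FPKM (SD, n = 5), both without overlap. Fads2, another desaturase of this family, fell from 7.77 ± 0.98 to 5.75 ± 0.88 FPKM (SD, n = 5; log2 fold change −0.38, adjusted p = 0.018 from limma), a call lost under median-ratio scaling (0.0548). The core enzymes Acly, Acaca and Fasn had log2 fold changes of −0.12, −0.08 and −0.09 and did not pass, beside the fall of Srebf1. Acss2, an acetyl-CoA synthetase, did not pass without FL mouse 1, 2 or 4 or KO mouse 1 or 4 (limma adjusted p from 0.0528 to 0.0689).

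Of 10 genes for SREBP cleavage and for turnover of INSIG and the sterol sensor, among them the proteases Mbtps1 and Mbtps2, limma called 0, and 1 (Rnf145) had an unadjusted p under 0.05. Of 14 genes of LXR, efflux, sterol transfer and ester hydrolysis, 3 rose (Lipa, Nceh1 and Gramd1c) and 2 fell (Mylip and Gramd1a). Mylip, an LXR target, fell from 7.10 ± 0.65 to 5.47 ± 0.24 FPKM (SD, n = 5; log2 fold change −0.32, adjusted p = 0.00379 from limma), while the LXR targets Abca1 and Abcg1 had log2 fold changes of −0.07 and −0.15 and did not pass. Gramd1c did not pass without FL mouse 1, 2, 3 or 5 or KO mouse 1, 3 or 4 (limma adjusted p from 0.0504 to 0.0617), and Gramd1a did not without FL mouse 1, 3 or 5 or KO mouse 1, 4 or 5 (0.0691 to 0.0836), under median-ratio scaling (0.0620), quantiles (0.0582) or the same sum (0.0788), or with low genes kept (0.0709). Of 16 genes in other branches of the mevalonate route, Cyb5a rose and Coq2 and Acat1 fell. The call of Cyb5a was lost without FL mouse 1, 3, 4 or 5 or KO mouse 1, 2 or 4 (limma adjusted p from 0.066 to 0.0964), when low genes were not filtered (0.0579) and with no variance trend (0.0511), and that of Coq2 without FL mouse 1, 3, 4 or 5 or KO mouse 1, 3, 4 or 5 (0.0507 to 0.0831) or under median-ratio scaling (0.209), quantiles (0.212) or the same sum (0.147). Acat1, the mitochondrial counterpart of Acat2, fell from 70.2 ± 4.20 to 58.3 ± 3.39 FPKM (SD, n = 5; log2 fold change −0.27, adjusted p = 0.00629 from limma), where Acat2 rose; the difference between these 2 changes was not tested.

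**Figure D5:**
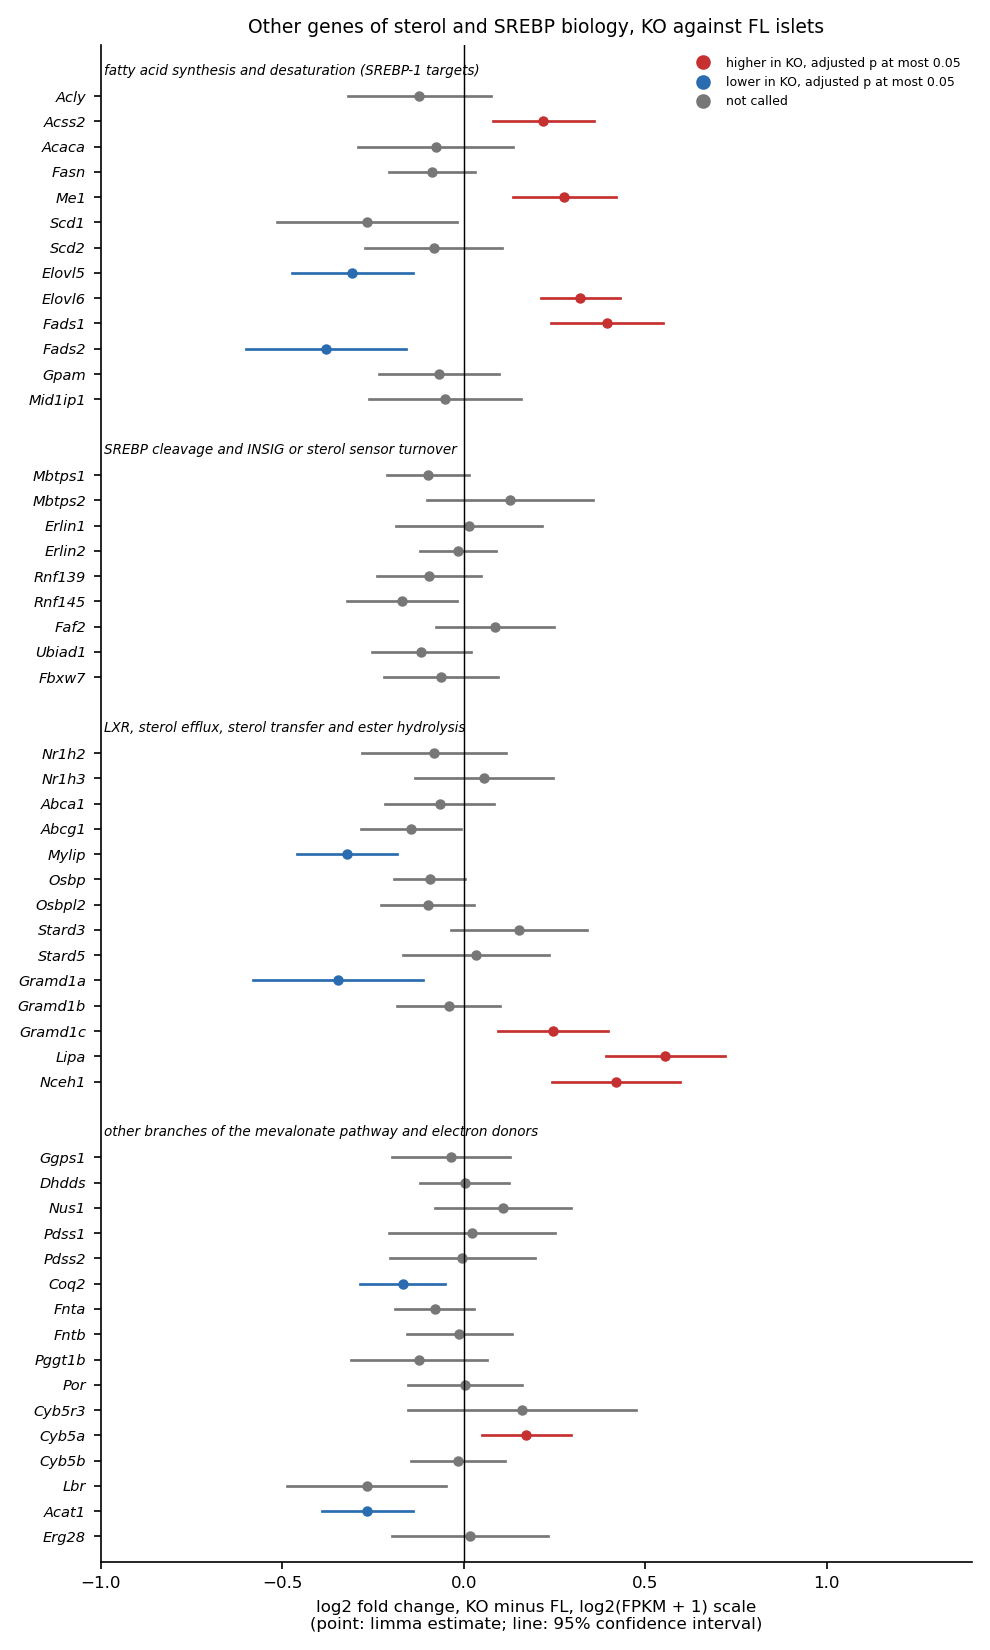
Log2 fold change (KO minus FL, log2(FPKM + 1) scale) of tested genes from 4 further lists around sterol and SREBP biology; points are limma estimates, lines are 95% confidence intervals, and colours mark genes with an adjusted p of at most 0.05. Lipa (0.56) and Nceh1 (0.42) are the highest, and no gene plotted under SREBP cleavage and turnover is red or blue.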

How the data were processed

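The authors deposited 1 table of FPKM per gene with a column for each of the 10 mice. Per the labels, reads were aligned with STAR 2.5.2a to GRCm38 (mm10) and FPKM came from Cuffnorm 2.2.1; the annotation, the strand setting and the scaling are not given in the sources used here. FPKM hold no number of reads, so no counting error could be computed. The reads were not processed again, and all columns belong to mapped mice.

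The groups were tested by limma 3.58.1 (R 4.3.3) on log2(FPKM + 1), with eBayes and a variance trend. The 13065 genes tested are those whose group mean reached 1 FPKM in either group. The p-values were adjusted over all tested genes by the Benjamini-Hochberg method, and the threshold for a call was 0.05. Because of the added 1, log2 fold changes of low genes are understated. Single genes were also compared by an exact two-sided permutation test. Tables and figures were made in Python 3.11.15 (numpy 2.4.6, pandas 2.3.3, matplotlib 3.10.9), and the procedure was tested on simulated data. P-values set the difference between the group means against the spread between mice, which limma also moderates across genes.

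The 28 genes, the other lists and the tests were chosen with earlier results of these data known. By the rule for named genes, values are given in every library for the called genes, the SREBP regulators and the first enzyme of each branch. The other members are given by range, mean ± SD or fold change. Hmgcs1 and Nsdhl fall outside this rule, and their values in every library are given after they were seen. Gene coordinates and exon lengths come from GENCODE M21 (GRCm38), in which 46841 of 47340 identifiers matched without their version and 38723 with it, 19 of the 28 genes among the latter. The list counts include 1 further gene that is not reported here and not plotted. Promoter sequences are RefSeq's. Alternatives were a pseudocount of 0.1, no filter or a minimum of 5 FPKM, rescaling to the same sum (TPM), by quantiles or by median ratio, limma with sample weights, with robust eBayes or with no variance trend, the replicate number as a block, a 1.5-fold threshold and leaving out each mouse.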

Additional observations from a re-analysis of the deposited data

Results flagged for a closer look

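Within the 5 KO mice, 1 mouse stood far from the other 4 for 2 of the 28 genes. For Mvd, KO mouse 2 was at 8.45 FPKM and the others at 7.41 to 7.62 FPKM, so that the gap to the nearest mouse made up 0.799 of the range of the group. For Ebp, KO mouse 2 was at 66.2 FPKM and the others at 52.6 to 54.2 FPKM, a gap of 0.886 of the range. In 56 groups examined (28 genes in FL and in KO), chance at 1 in 20 gives 2.8 such gaps, and 2 were found. Mvd stayed called without this mouse. Ebp, which was not called, had a log2 fold change of 0.050 without it.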

How the results depend on the processing

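Under the 20 alternatives other than the 1.5-fold threshold, 15 of the 28 genes kept their direction and their side of the threshold, and Soat1, Sqle, Fdps, Scap and Srebf1 passed in each. With the 1.5-fold threshold added, Soat1 alone of the 28 passed (1 higher, 0 lower; over all tested genes 349 higher and 290 lower). The FL and KO mice share replicate numbers in their titles, but same-numbered mice did not deviate together (correlations of −0.102 to 0.00305, 0 of 5 best with their own number). With the number as a replicate block, 3 of the 28 genes were higher and 2 lower, and 2368 of all tested genes were called in place of 3333; Mvd (0.0754), Pmvk (0.0628), Acat2 (0.103) and Tmem97 (0.134) did not pass, nor did Acss2 (0.0991), Gramd1a (0.0823), Coq2 (0.0945) and Cyb5a (0.0805) of the other lists. With each mouse left out in turn, 4 to 6 of the 28 genes were higher and 2 to 5 lower (5 without KO mouse 2), and over all tested genes 936 to 1130 were higher and 1589 to 2367 lower. Sample weights gave 8 higher and 4 lower of the 28, with Hmgcs1 (0.0141), Insig1 (0.0393) and Srebf2 (0.0199) added to the called genes. The share of called genes that were lower was 64.5%, and 47.3% under median-ratio scaling, 53.002% with quantiles and 52.4% with the same sum. Signs reversed for 4 genes that were never called (Npc1, Lss, Idi1 and Stard4). In the main fit Idi1 had a log2 fold change of 0.11 with an SE of 0.23. Npc1 had a log2 fold change of 0.030 under median-ratio scaling, 0.019 with quantiles and 0.011 with the same sum. Lss was at −0.0065 with sample weights and from −0.036 to 0.098 with a mouse left out, Idi1 from −0.039 to 0.26 and Stard4 from −0.022 to 0.096. Some genes kept their sign but moved in size when a mouse was left out. Msmo1 ran from 0.0062 to 0.12, Fdft1 from 0.010 to 0.064 and Mvk from 0.12 to 0.22. Hsd17b7 ran from −0.31 to −0.13 and Npc1 from −0.059 to −0.0060. The cause of these shifts was not tested. Relative depth was only estimated and the number of reads is not known, so differences of low genes such as Acat2 and Mvd cannot be set against counting error.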
